A study of Mus musculus with 6 samples.

Results

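Genes that decide whether a resting cell enters the division cycle were followed in satellite cells, the resident stem cells of skeletal muscle. They were chosen by name for their role in G1, with earlier results of these data known, and were the D-type cyclins Ccnd1, Ccnd2 and Ccnd3, their kinase partners Cdk4 and Cdk6, the kinase inhibitor Cdkn1b (p27), the atypical cyclin Ccng2, the pocket proteins Rb1 and Rbl1 (p107), and the transcription factor Myc. These 10 genes were found among 54123 genes in the quantification files, and all 10 were among the 17084 genes with enough reads to be tested. Total RNA had been sequenced from satellite cells of adult C57BL/6 mice, collected by fluorescence-activated sorting from the tibialis anterior and gastrocnemius 30 h after injury with cardiotoxin, a snake venom toxin that destroys muscle fibres. All 3 groups carried the same injury, and each had 2 libraries. Jmjd3 KO cells were made to lack JMJD3 (gene Kdm6b) and Utx KO cells to lack UTX (gene Kdm6a), both of them demethylases of a repressive lysine mark on histone H3, and the group labelled Tdt Control was the reference for both. The labels do not give the Cre driver or the alleles, nor say whether mice were pooled or whether the libraries of a group came from separate mice, so p-values measure only the spread between these libraries.

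In G1, the phase before DNA replication, D-type cyclins bind CDK4 or CDK6, and the active kinase phosphorylates the pocket proteins RB1 and RBL1, which releases the E2F factors that switch on replication genes. CDKN1B binds cyclin and CDK complexes and holds them inactive, Ccng2 is a cyclin family member associated with cell cycle arrest, and MYC drives growth and G1 genes. Cdkn1b and Ccng2 are textbook targets of the FOXO factors, Ccnd2 and Cdk4 are textbook targets of MYC, and Rbl1 is a textbook target of E2F. In muscle, quiescent satellite cells carry high CDKN1B, and injury brings them into their first division.

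The sequence just before the start site is shown for 5 of these genes, because the factors named above act on such windows. The Cdkn1b and Ccng2 windows belong to the genes that rose in both knockouts, the Cdk6 window to a gene that fell in Jmjd3 KO, and the Cdk4 and Rbl1 windows carry the motifs of MYC and E2F. RefSeq promoters (GRCm38.p6) were matched by symbol for 6 of the 10 genes; Ccnd1, Ccnd2, Myc and Rb1 had no entry. Each line gives the 250 bases before the start, 5′ to 3′ on the gene's strand, in lower case with motif matches in capitals.
Cdkn1b (chr6:134920151-134920400, plus strand): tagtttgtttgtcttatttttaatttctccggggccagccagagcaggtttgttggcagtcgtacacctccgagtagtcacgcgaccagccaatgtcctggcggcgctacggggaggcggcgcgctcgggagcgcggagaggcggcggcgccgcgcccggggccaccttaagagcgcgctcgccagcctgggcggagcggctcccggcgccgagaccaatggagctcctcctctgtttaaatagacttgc
Ccng2 (chr5:93267323-93267572, plus strand): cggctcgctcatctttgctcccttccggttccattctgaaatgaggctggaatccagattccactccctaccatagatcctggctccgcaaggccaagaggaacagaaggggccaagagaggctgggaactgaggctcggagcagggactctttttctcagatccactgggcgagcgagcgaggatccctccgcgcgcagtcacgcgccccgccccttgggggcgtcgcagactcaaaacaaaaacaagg
Cdk6 (chr5:3343643-3343892, plus strand): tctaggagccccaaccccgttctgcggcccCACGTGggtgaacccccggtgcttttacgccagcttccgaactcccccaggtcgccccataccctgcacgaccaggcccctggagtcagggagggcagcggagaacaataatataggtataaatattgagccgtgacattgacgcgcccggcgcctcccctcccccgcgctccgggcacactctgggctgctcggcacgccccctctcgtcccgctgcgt
Cdk4 (chr10:127063285-127063534, plus strand): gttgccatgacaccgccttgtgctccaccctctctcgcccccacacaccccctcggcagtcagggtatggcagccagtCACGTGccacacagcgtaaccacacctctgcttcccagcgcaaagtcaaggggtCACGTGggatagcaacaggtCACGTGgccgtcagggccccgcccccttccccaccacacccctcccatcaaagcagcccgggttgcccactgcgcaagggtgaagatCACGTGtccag
Rbl1 (chr2:157204535-157204784, minus strand): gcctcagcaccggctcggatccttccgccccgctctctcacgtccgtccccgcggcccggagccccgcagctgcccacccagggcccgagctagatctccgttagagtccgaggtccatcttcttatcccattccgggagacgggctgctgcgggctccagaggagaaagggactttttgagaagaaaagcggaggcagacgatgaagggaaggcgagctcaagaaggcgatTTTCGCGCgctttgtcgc
The motifs searched on both strands were the FOXO site GTAAACA, which reads TGTTTAC on the other strand, the E-box CACGTG (the same on both strands) bound by MYC and its partners, the E2F sites TTTCCCGC, TTTCGCGC, TTTGGCGC and TTTGCCGC, and the cell cycle element TTTGAA. None of these letters stood in the Cdkn1b or Ccng2 window. The Cdk4 window held CACGTG at 4 places, 172 to 167, 118 to 113, 98 to 93 and 11 to 6 bases before the start. Among all 32851 promoter windows of that length, 6.02% held CACGTG at least once and 7 windows (0.0213%) held it 4 times or more. The Cdk6 window held it once, 220 to 215 bases before the start. The Rbl1 window held the E2F site TTTCGCGC 18 to 11 bases before the start, and 1.86% of windows held any of the 4 E2F forms. A FOXO site stood in 1 of the 2 Ccnd3 windows, against 3.17% of all windows, and TTTGAA (16% of all windows) stood in none of the member windows. A match is only a match of letters, and no binding was measured here. The RefSeq starts of Ccng2 and Cdk6 lie downstream of the gene starts in GENCODE M21, which puts both windows inside the annotated genes.

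The libraries held 53750675 to 77675388 estimated reads, and the 10 genes had between 452 (Ccng2) and 90670 (Ccnd1) reads each in a library. Values below are CPM (read counts scaled by the TMM-normalised library size) when libraries are compared for 1 gene, and TPM (which also divides by transcript length) when genes are compared with each other. Kdm6a stood at 7.38 to 7.68 CPM in the libraries labelled Utx KO against 32.8 to 33.96 in Tdt Control (log2 -2.15 ± 0.06, adjusted p = 1.02e-05). Kdm6b stood at 15.9 to 16.5 CPM in Jmjd3 KO against 22.7 to 29.9 in Tdt Control (log2 -0.70 ± 0.12, adjusted p = 0.0243), and that call was lost without Jmjd3 KO replicate 1 (0.167) or replicate 2 (0.123). The satellite cell markers Pax7 (134 to 148 CPM), Myf5 (58.0 to 83.7 CPM) and Myod1 (399.98 to 473 CPM) were present in every library. Myod1 had 469 and 473 CPM in Tdt Control, 399.98 and 410 in Jmjd3 KO and 407 and 403 in Utx KO. Myf5 had 60.3 and 62.1 CPM in Tdt Control, 59.2 and 58.0 in Jmjd3 KO and 83.7 and 82.6 in Utx KO. Of 12 satellite cell markers, 2 were called higher and 1 lower in each knockout against Tdt Control (25%). Of all genes tested, 3% were called in Jmjd3 KO and 1.72% in Utx KO. Markers of other cells were present too. The 12 mature fibre markers summed to 7777 to 8083 CPM in Jmjd3 KO, 6058 to 6243 in Tdt Control and 5445 to 6505 in Utx KO, with none at 0. The 12 neutrophil markers summed to 258 to 335 CPM in Jmjd3 KO, 166 to 182 in Tdt Control and 222 to 258 in Utx KO. Called higher than in Tdt Control were 6 of the 11 tested in Jmjd3 KO and 1 of 11 in Utx KO. Of all genes tested, 1.97% were called higher in Jmjd3 KO and 0.790% in Utx KO. Of the 12 neutrophil markers, Ly6g had too few reads to be tested, with 0 in Tdt Control replicate 1 and no more than 0.0930 CPM elsewhere. S100a8 stood at 19.6 to 45.2 CPM and S100a9 at 31.0 to 70.3 CPM over the 6 libraries. Against Tdt Control, the log2 fold change was positive for 11 of 11 tested in Jmjd3 KO (median 0.71). In Utx KO it was positive for 10 and negative for 1 (median 0.40). The 12 macrophage and monocyte markers summed to 225 to 233 CPM in Jmjd3 KO, 173 to 216 in Tdt Control and 140.1 to 166 in Utx KO. Of these, 6 of 12 were called higher in Jmjd3 KO than in Utx KO, against 5.13% of all genes tested. The 10 endothelial markers summed to 50.6 to 74.5 CPM over the 6 libraries and the 10 fibro-adipogenic markers to 1227 to 1419. The part of these other cells in the results was not tested, and in a bulk library fewer cells of a type and less RNA per cell cannot be told apart.

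In cells labelled Jmjd3 KO, the inhibitor Cdkn1b and the arrest-associated cyclin Ccng2 rose while the D-type cyclin Ccnd2 and the kinase Cdk6 fell. In Utx KO, Cdkn1b and Ccng2 rose and no member fell. Between the knockouts, Ccnd2 and Myc were lower in Jmjd3 KO. A gene was called changed at an adjusted p under 0.05 in edgeR's quasi-likelihood test over all genes. In Jmjd3 KO against Tdt Control, 4 of the 10 genes were called, where 3% of all genes tested were (1.97% higher and 1.03% lower). In Utx KO against Tdt Control, 2 of 10 were called, both higher, where 1.72% of all genes were (0.790% higher and 0.925% lower). In Jmjd3 KO against Utx KO, 2 of 10 were called, both lower, where 8.02% of all genes were (5.13% higher and 2.89% lower). The first 2 comparisons share the Tdt Control libraries, so a low or high control library moves both. Values that did not overlap between groups were common with 2 libraries each: 9, 5 and 8 of the 10 genes in the 3 comparisons, against 51.8%, 45.6% and 57.2% of all genes.

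**Figure D1:**
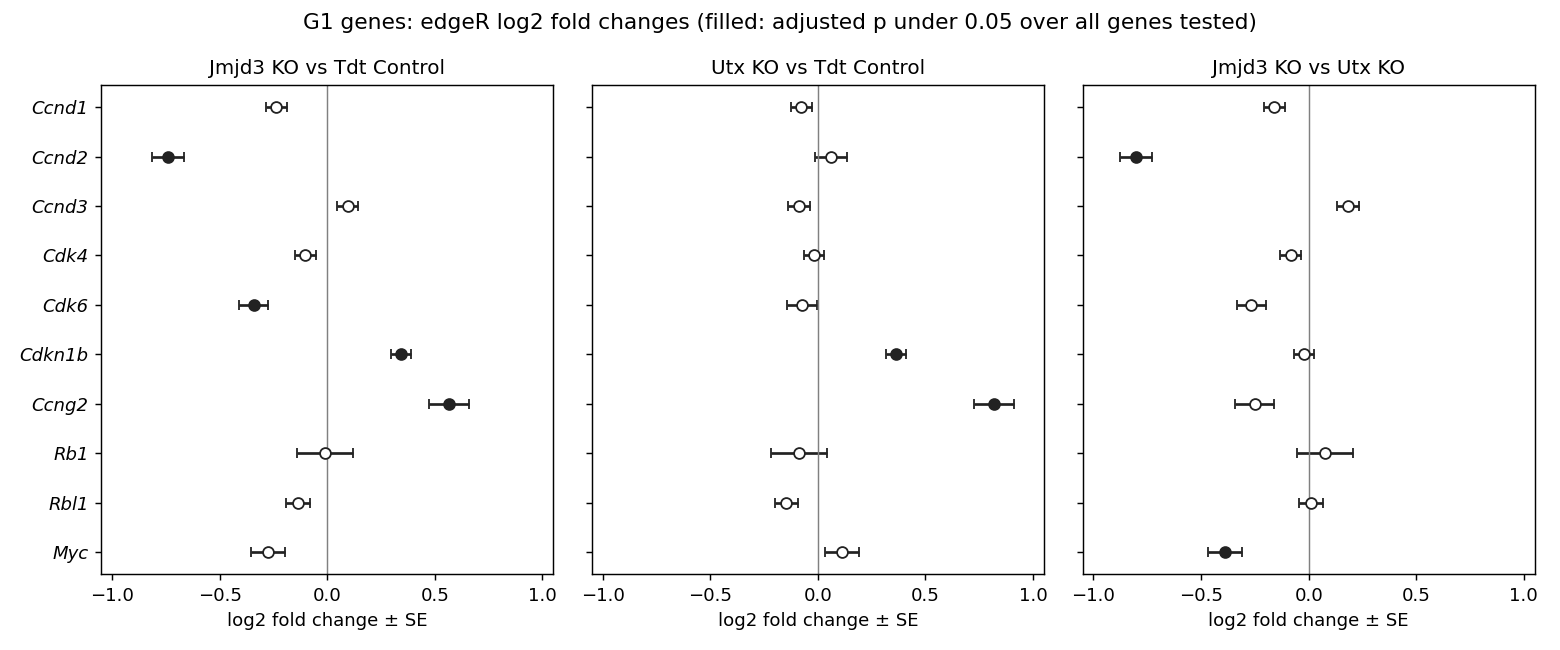
Log2 fold change (x axis, ± SE from edgeR) of each of the 10 G1 genes (y axis) in the 3 comparisons, with filled points for an adjusted p under 0.05 over all genes tested. Ccnd2 is filled on the left at -0.74 in Jmjd3 KO against Tdt Control and at -0.80 against Utx KO, and Cdkn1b and Ccng2 are filled on the right in both comparisons with the control.

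Ccnd2 was the D-type cyclin with the clearest difference. Cyclin D2 binds CDK4 and CDK6 like its relatives, and its gene (ENSMUSG00000000184.12, GRCm38 chr6:127125162-127152193, minus strand) is often the one induced when resting cells are stimulated. It had 8.77 and 8.45 CPM in the Jmjd3 KO libraries, against 14.8 and 13.97 (Tdt Control) and 14.5 and 15.5 (Utx KO). Both Jmjd3 KO libraries lay below the other 4, and the Tdt Control and Utx KO libraries overlapped. The fall in Jmjd3 KO was 1.67-fold against Tdt Control (log2 -0.74 ± 0.07, adjusted p = 0.00374) and 1.74-fold against Utx KO (log2 -0.80 ± 0.07, adjusted p = 0.00178). Utx KO and Tdt Control differed by 0.06 ± 0.07 (adjusted p = 0.741). Ccnd2 was called in both Jmjd3 KO comparisons under all 14 alternatives tried, each left-out library among them.

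Ccnd1 encodes cyclin D1, the most abundant of the D-type cyclins here (ENSMUSG00000070348.5, chr7:144929931-144939925, minus strand). It had 978 and 976 CPM in the Jmjd3 KO libraries, against 1193 and 1109 (Tdt Control) and 1053 and 1129 (Utx KO). The Jmjd3 KO libraries were the lowest pair, while Utx KO and Tdt Control overlapped. The difference between Jmjd3 KO and Tdt Control lay at the threshold (log2 -0.24 ± 0.05, adjusted p = 0.0508). It passed in the fit of those 4 libraries alone (0.0458), without Utx KO replicate 1 (0.0473) or replicate 2 (0.0485), with no low-count filter (7.02e-06) and with DESeq2 (0.0027). Against Utx KO it was -0.16 (adjusted p = 0.0962), and Utx KO against Tdt Control gave -0.08 (adjusted p = 0.492).

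Ccnd3, the cyclin D3 gene, which is also known for a role in muscle differentiation (ENSMUSG00000034165.16, chr17:47505051-47599691, plus strand), stood apart from its relatives in sign only in the comparisons with Jmjd3 KO. In Utx KO against Tdt Control it was negative like Ccnd1, and Ccnd2 was positive. No Ccnd3 difference was called. It had 165 and 159.9 CPM in the Jmjd3 KO libraries, against 151 and 154 (Tdt Control) and 140.2 and 146 (Utx KO). In CPM the 3 groups did not overlap, while in TPM Tdt Control (63.17 and 69.08) and Utx KO (63.23 and 63.37) did. None of the differences passed: 0.09 ± 0.05 in Jmjd3 KO (adjusted p = 0.353), -0.09 in Utx KO (adjusted p = 0.447) and 0.18 ± 0.05 between the knockouts (adjusted p = 0.0722). The last passed with a minimum of 5 CPM in 2 libraries (0.0365), with no filter (0.0392) and with DESeq2 (0.0126). As a share of D-type cyclin TPM, Ccnd1 took 73.1% and 73.5% (Jmjd3 KO), 78.3% and 76.3% (Tdt Control) and 76.7% and 77.6% (Utx KO). Ccnd3 took 26.5% and 26.1%, 21.1% and 23.1%, and 22.6% and 21.7% in the same order. Ccnd2 took 0.429% and 0.403%, 0.613% and 0.620%, and 0.677% and 0.687%. The mixture of D-type cyclin transcripts in Jmjd3 KO thus held more Ccnd3 and less Ccnd1 and Ccnd2 than in any library of the other groups, a description with no test of its own. In every library Ccnd2 was under 1% of the sum.

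**Figure D2:**
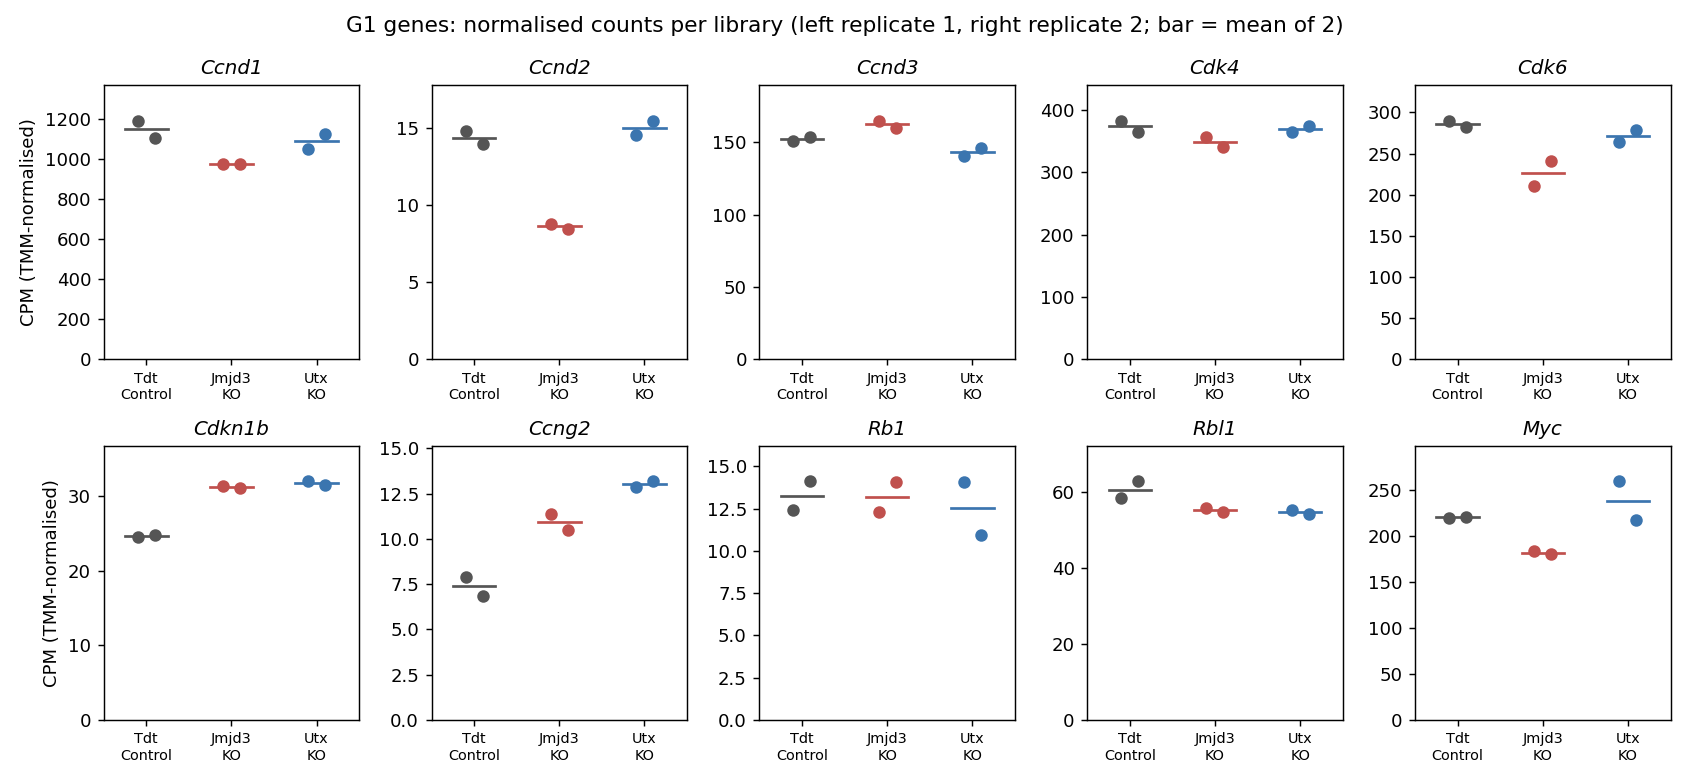
Level of each of the 10 genes in each of the 6 libraries (y axis, TMM-scaled CPM; x axis, group), each point 1 library. The Jmjd3 KO points of Ccnd2 (8.45 and 8.77 CPM) sit below the other 4, and the Tdt Control points of Cdkn1b and Ccng2 sit below those of both knockouts.

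Of the kinase partners, Cdk6 fell in Jmjd3 KO and Cdk4 was not called. Cdk6 (ENSMUSG00000040274.11, chr5:3341485-3531008, plus strand) had 211 and 241 CPM in the Jmjd3 KO libraries, against 290.0 and 282 (Tdt Control) and 265 and 279 (Utx KO). The Jmjd3 KO pair was the lowest and also the most spread. Cdk6 fell in Jmjd3 KO by 0.34 on the log2 scale (SE 0.07, adjusted p = 0.0454), a 1.27-fold difference close to the threshold. The call was lost without Jmjd3 KO replicate 1 (0.202), Tdt Control replicate 1 (0.147) or 2 (0.120), Utx KO replicate 1 (0.0670) or 2 (0.0667), and in the fit of the 4 libraries compared (0.0654). Against Utx KO the difference was -0.27 ± 0.07 (adjusted p = 0.0569), past the threshold with no low-count filter (0.000201), with transcript length offsets (0.0175) and with DESeq2 (0.00347). Utx KO against Tdt Control gave -0.07 (adjusted p = 0.658).

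Cdk4 (ENSMUSG00000006728.12, chr10:127063534-127067920, plus strand) had 356 and 341 CPM in the Jmjd3 KO libraries, against 383 and 365 (Tdt Control) and 364 and 374 (Utx KO). In CPM its Jmjd3 KO pair lay below the other 4 libraries, and Utx KO and Tdt Control overlapped. In TPM this order did not hold: Jmjd3 KO replicate 1 was the highest of all libraries (297) and replicate 2 the lowest (275). Its 3 differences were -0.10 ± 0.05 (adjusted p = 0.289), -0.02 (adjusted p = 0.898) and -0.08 (adjusted p = 0.320), none of them called. The sign in Utx KO turned positive without Tdt Control replicate 1 or Utx KO replicate 1, so no direction is read from it.

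Cdkn1b encodes p27, the inhibitor of G1 kinases (ENSMUSG00000003031.14, chr6:134920401-134925513, plus strand). It had 31.4 and 31.1 CPM in the Jmjd3 KO libraries, against 24.6 and 24.8 (Tdt Control) and 31.97 and 31.5 (Utx KO). The 4 knockout libraries lay within 1 CPM of each other and above both control libraries. The rise was 1.27-fold in Jmjd3 KO (log2 0.34 ± 0.05, adjusted p = 0.0118) and 1.29-fold in Utx KO (log2 0.36 ± 0.05, adjusted p = 0.0182). The knockouts differed by -0.02 ± 0.05, with a 95% interval of -0.13 to 0.08 (adjusted p = 0.813). The Jmjd3 KO call was lost without Jmjd3 KO replicate 1 (0.122) or 2 (0.113) and without Tdt Control replicate 1 (0.0589) or 2 (0.0594). The Utx KO call was lost with the 4 libraries compared alone (0.0527) and without any 1 of the 6 libraries (0.0568 and 0.0651 without Jmjd3 KO replicates 1 and 2, 0.0852 and 0.0795 without Tdt Control replicates 1 and 2, 0.117 and 0.0580 without Utx KO replicates 1 and 2). In these fits the log2 fold change lay between 0.33 and 0.38.

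Ccng2 (ENSMUSG00000029385.14, chr5:93267257-93276231, plus strand) showed the largest rise of the 10 genes in each knockout. It had 11.4 and 10.5 CPM in the Jmjd3 KO libraries, against 7.90 and 6.86 (Tdt Control) and 12.9 and 13.2 (Utx KO). In CPM the 3 groups were ordered without overlap, Tdt Control lowest and Utx KO highest. In TPM the knockouts overlapped, at 5.45 and 5.16 in Jmjd3 KO and 5.03 and 5.62 in Utx KO. Tdt Control stayed lowest (3.08 and 3.53). The rise was 1.48-fold in Jmjd3 KO (log2 0.57 ± 0.09, adjusted p = 0.0226) and 1.76-fold in Utx KO (log2 0.82 ± 0.09, adjusted p = 0.0146), and the difference between the knockouts did not pass (-0.25 ± 0.09, adjusted p = 0.138). The Jmjd3 KO call was lost without Jmjd3 KO replicate 1 (0.161) or 2 (0.0760) and without Tdt Control replicate 2 (0.0809). The Utx KO call was lost without Tdt Control replicate 1 (0.0509) or 2 (0.0511) and without Utx KO replicate 1 (0.0864) or 2 (0.0567). Ccng2 was also the member with the fewest reads, 452 to 775 per library.

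The balance of the most abundant D-type cyclin to the inhibitor, the ratio of Ccnd1 to Cdkn1b TPM, came to 15.4 and 15.2 (Jmjd3 KO), 23.6 and 21.9 (Tdt Control) and 16.4 and 17.9 (Utx KO). All 4 knockout libraries lay below both control libraries, but Cdkn1b was itself called higher in both knockouts. The lower ratio therefore restates that rise in part and has no test of its own. In Jmjd3 KO the Cdkn1b rise was 0.34 (log2) and the Ccnd1 difference, which did not pass, -0.24. In Utx KO the Cdkn1b rise was 0.36 and the Ccnd1 difference, which did not pass, -0.08.

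No difference of a pocket protein gene passed the test. Rbl1, which encodes p107 (ENSMUSG00000027641.13, chr2:157145893-157204534, minus strand), had 55.8 and 54.7 CPM in the Jmjd3 KO libraries, against 58.4 and 62.9 (Tdt Control) and 55.3 and 54.3 (Utx KO). All 4 knockout libraries were below both controls, by -0.13 ± 0.05 in Jmjd3 KO (adjusted p = 0.226) and -0.15 ± 0.05 in Utx KO (adjusted p = 0.249). Rb1, the retinoblastoma gene (ENSMUSG00000022105.6, chr14:73183673-73325822, minus strand), had 12.3 and 14.1 CPM in the Jmjd3 KO libraries, against 12.4 and 14.1 (Tdt Control) and 14.1 and 10.9 (Utx KO). Its groups overlapped in all comparisons, the SE was 0.13, and the differences were -0.01 (adjusted p = 0.981), -0.09 (adjusted p = 0.806) and 0.08 (adjusted p = 0.766). The sign of Rb1 turned in each comparison when a library was left out, and it turned in Jmjd3 KO with a minimum of 5 CPM.

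Myc (ENSMUSG00000022346.15, chr15:61985391-61990374, plus strand) had 184 and 181 CPM in the Jmjd3 KO libraries, against 220.1 and 221 (Tdt Control) and 259.5 and 217 (Utx KO). The Jmjd3 KO pair was the lowest, and the Utx KO libraries lay on either side of the controls. Myc was 1.31-fold lower in Jmjd3 KO than in Utx KO (log2 -0.39 ± 0.08, adjusted p = 0.0270), a call lost without Jmjd3 KO replicate 1 (0.121), Jmjd3 KO replicate 2 (0.155) or Utx KO replicate 1 (0.107). Against Tdt Control the Jmjd3 KO difference was -0.28 ± 0.08 and did not pass (adjusted p = 0.112), though it did in the 4 libraries alone (0.0455), without Utx KO replicate 1 (0.0475) or 2 (0.0449), with no filter (0.000377) and with DESeq2 (0.0191). The Utx KO difference from Tdt Control was 0.11 ± 0.08 (adjusted p = 0.538), and it turned to -0.02 without Utx KO replicate 1.

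The authors' deposited table of Jmjd3 KO against control called 6 of the 10 genes at an adjusted p under 0.05. In the authors' deposited table the log2 fold changes of those that fell were -0.68 for Ccnd2 (2.14e-07), -0.37 for Cdk6 (1.79e-06), -0.24 for Myc (0.0320) and -0.20 for Ccnd1 (0.00478), with adjusted p in brackets. The 2 that rose in the authors' deposited table were Ccng2 at 0.52 (9.79e-04) and Cdkn1b at 0.31 (0.00128). For Utx KO the authors' deposited table called Ccng2 at 0.64 (7.68e-05) and Cdkn1b at 0.30 (0.00241) and no other member. These tables rest on the same 6 libraries. The share of all genes that the authors called was not counted here, so these member counts have no background beside them.

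On the per-length TPM scale the 10 genes spanned a wide range. Cdk4 had a lowest, median and highest level of 275, 293 and 297 TPM, and Ccnd1 of 209, 220.1 and 235. Myc (60.02, 67.5 and 83.6 TPM) and Ccnd3 (63.2, 66.2 and 75.9 TPM) overlapped, and Cdk6 followed (33.8, 43.2 and 45.2 TPM). Rbl1 (12.1, 13.4 and 14.2 TPM) and Cdkn1b (9.95, 12.8 and 14 TPM) overlapped, as did Ccng2 (3.08, 5.10 and 5.62 TPM) and Rb1 (2.603, 3.26 and 3.98 TPM). Ccnd2 was lowest at 1.17, 1.85 and 2.00 TPM. The order of the top pair depended on which transcripts were summed: the mean Ccnd1 to Cdk4 ratio was 0.762 ± 0.0340 (SD, n = 6) over all transcripts and 1.68 over protein-coding transcripts alone. With protein-coding transcripts alone the median of Cdkn1b (12.8 TPM) also came above that of Rbl1 (9.03 TPM).

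**Figure D3:**
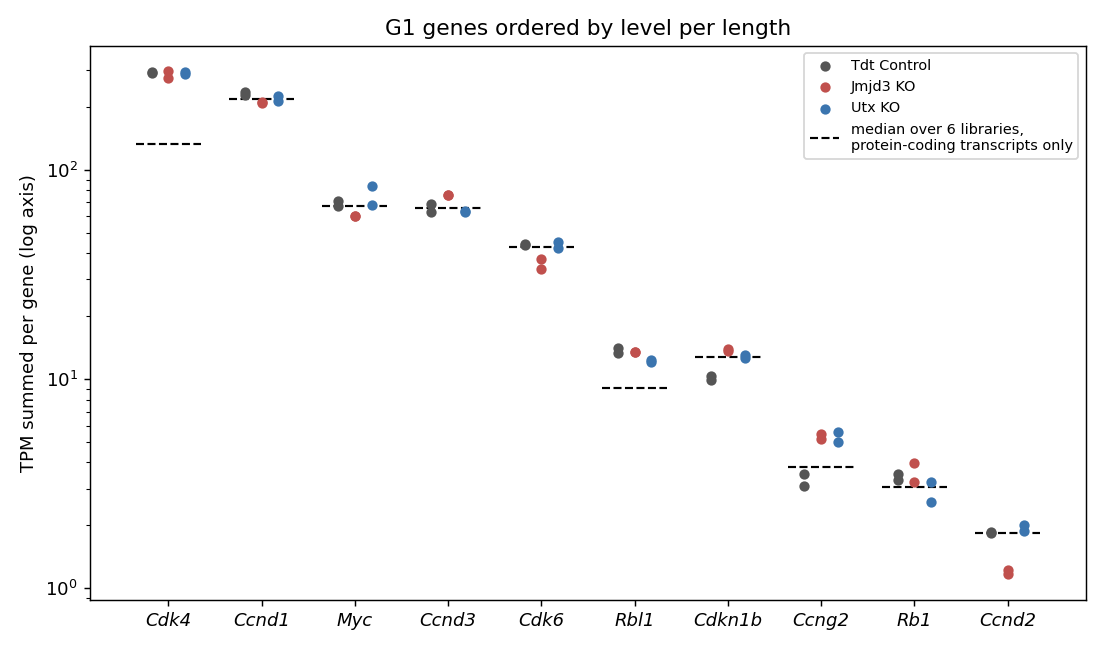
TPM of the 10 genes (y axis, log scale; 1 point per library, x axis ordered by median). Cdk4 and Ccnd1 are the highest and Ccnd2 the lowest, and the points of Myc and Ccnd3, of Rbl1 and Cdkn1b, and of Ccng2 and Rb1 overlap.

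The transcript estimates showed where these levels came from. Cyclin D1 reads were assigned almost wholly to Ccnd1-201 (99.2% to 99.4% of its TPM), and Ccnd2-201 (95.5% to 98.7%) and Ccnd3-205 (93.5% to 95.7%) dominated their genes. Only 43.1% to 46.7% of Cdk4 TPM was on protein-coding transcripts, led by Cdk4-205 (25.3% to 27.5%). Cdk4-209, a retained-intron transcript of 468 bases, took 34.0% to 35.5%, and the nonsense-mediated decay form Cdk4-208 took 14.4% to 19.2%. Cdk6 was split between the 11525-base Cdk6-202 (45.7% to 53.2%) and the 425-base Cdk6-205 (28.8% to 37.9%). Because TPM divides by length, such short forms weigh more in TPM than in reads.

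Cdkn1b was estimated with little variation in make-up, Cdkn1b-201 holding 82.1% to 84.7% and Cdkn1b-202 14.8% to 17.9% in all 6 libraries. Ccng2 was the least even. Its coding form Ccng2-201 took 7.88% of TPM in Tdt Control replicate 2 against 40.1% in Tdt Control replicate 1 and 34.7% to 45.6% in the knockouts, and the noncoding Ccng2-206 ranged from 2.24% to 29.0%. Protein-coding forms made up 59.8% to 87.3% of Ccng2 TPM, lowest in Tdt Control replicate 2. Rbl1-202, a retained-intron transcript, took 26.2% to 32.9% of Rbl1 TPM, while Myc was divided between Myc-205 (58.7% to 63.6%) and Myc-202 (34.4% to 39.1%), both coding. Exons of Ccnd1, Ccnd2, Ccnd3, Cdk4, Cdk6 and Rb1 overlap genes on the other strand, among them Tspan31 at Cdk4 (mean 66.3 CPM) and Bysl at Ccnd3 (mean 90.6 CPM). The sources used here do not say whether the libraries kept strand, so reads in those stretches may belong to either gene. Cdkn1b, Ccng2 and Myc overlap no other annotated gene.

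**Figure D4:**
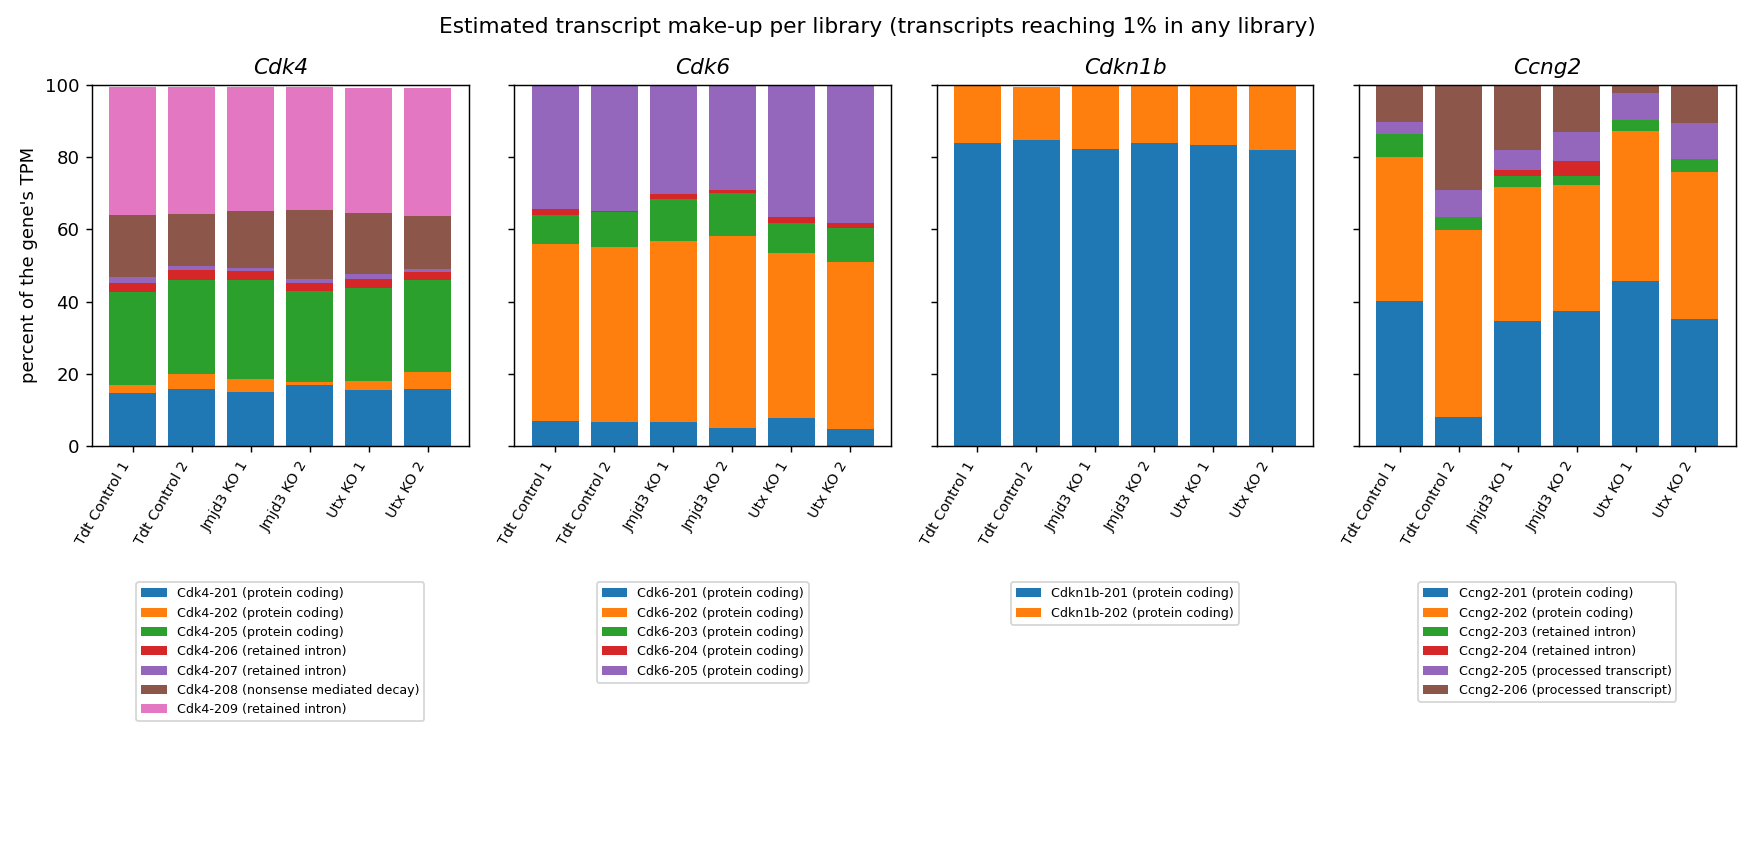
Share of each gene's TPM (y axis, percent) on its annotated transcripts in each of the 6 libraries (x axis) for Cdk4, Cdk6, Cdkn1b and Ccng2, for transcripts reaching 1% in any library. Cdk4-209, a retained-intron form, takes 34.0% to 35.5% throughout, and Ccng2-201 drops to 7.88% in Tdt Control replicate 2.

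The other genes of the G1 machinery were described by lists. Of 53 other G1 and cell cycle entry genes, 3 rose and 1 fell in Jmjd3 KO (7.55%, against 3% of all genes tested), with a median log2 of -0.02 beside -0.0047 for all genes. Mxd1, a MAX partner that opposes MYC, rose by 0.71 ± 0.07 (adjusted p = 0.00369). It is also 1 of the 12 neutrophil markers, whose sum was 258 to 335 CPM in Jmjd3 KO and 166 to 182 in Tdt Control. That sum and the count of neutrophil markers called higher in Jmjd3 KO include Mxd1 itself. The part of neutrophils in its rise was not tested. Mxd1 values were 36.1 and 31.7 CPM in the Jmjd3 KO libraries, against 21.0 and 20.5 (Tdt Control) and 25.3 and 26.6 (Utx KO). Cdkn2d, an inhibitor of CDK4 and CDK6, rose from 12.3 and 11.9 CPM to 17.9 and 16.7 (log2 0.51 ± 0.07, adjusted p = 0.0141), and Tob1, an antiproliferative factor, rose by 0.46 ± 0.06 (adjusted p = 0.0136). Cdc25a, the phosphatase that activates G1 kinases, fell by 0.40 (SE 0.07, adjusted p = 0.0311). The Mxd1 call held under all 14 alternatives. Tob1 and Cdkn2d lost theirs without any 1 of the 4 Jmjd3 KO and Tdt Control libraries (0.0518 to 0.103 and 0.0517 to 0.124), and Cdc25a without any 1 of the 6 (0.0516 to 0.192).

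In Utx KO, 4 of the 53 rose and none fell (7.55%, against 1.72% of all genes), with a median of -0.02. Cdkn2d rose to 16.3 and 17.8 CPM (log2 0.49 ± 0.07, adjusted p = 0.0263). Cdkn1c, which encodes the inhibitor p57, rose from 4.78 and 4.17 CPM to 7.35 and 10.7 (log2 1.01 ± 0.18, adjusted p = 0.0396). Tfdp2, an E2F dimer partner (0.38 ± 0.07, adjusted p = 0.0402), and Mxd4, another MAX partner (0.39 ± 0.07, adjusted p = 0.0445), were the others. Leaving out a library brought the count of 4 in edgeR to 0 or 1. It was 0 without either Jmjd3 KO library (11 at an unadjusted p under 0.05 in each fit) or without Tdt Control replicate 1 or 2 (12 and 13), and 1 without either Utx KO library. It was also 0 in the fit of the 4 libraries compared (11 at an unadjusted p under 0.05) and 2 with transcript length offsets, and DESeq2 on all libraries called 6. Without Utx KO replicate 2 the Cdkn1c value was 0.71. Between the knockouts, 3 of 53 were higher in Jmjd3 KO and 2 lower (9.43%, against 8.02% of all genes). Tob1 (0.44, adjusted p = 0.00891), Cdkn1a (p21, 202 and 202 CPM in Jmjd3 KO against 164 and 159 in Utx KO; 0.32 ± 0.05, adjusted p = 0.0104) and Mxd1 (0.39, adjusted p = 0.0189) were higher in Jmjd3 KO, and Cdkn1c (-0.97 ± 0.18, adjusted p = 0.0191) was lower. Without Jmjd3 KO replicate 1, none of the 5 was called (14 at an unadjusted p under 0.05). There was 1 call without Jmjd3 KO replicate 2, there were 2 without Utx KO replicate 1 and 3 with length offsets, and DESeq2 called 10.

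Replication genes, the downstream targets of E2F, were lower in sign but not called in Jmjd3 KO. Of 30 E2F-regulated replication genes, edgeR called 0 against Tdt Control, while all 30 had a negative log2 fold change, 19 had an unadjusted p under 0.05 and DESeq2 called 4. Of all 17084 genes tested, 8698 were negative and 3410 had an unadjusted p under 0.05, 1525 of them lower. DESeq2 called 1041 genes in all. The median of the 30 was -0.15 beside -0.0047 for all genes tested. The smallest p values of the 30 were those of Mcm3, a helicase subunit (-0.18, adjusted p = 0.0660), and Rfc4, a clamp loader subunit (-0.24, adjusted p = 0.0684). In Utx KO edgeR again called 0 of 30, with 2 at an unadjusted p under 0.05 and 1 by DESeq2, and a median of -0.03. Over all genes tested, 2768 had such a p, and DESeq2 called 656. Of the 30, Lig1 (-0.21, adjusted p = 0.103) and Dnmt1 (-0.12, adjusted p = 0.264) came first in Utx KO. Between the knockouts 2 of 30 were lower in Jmjd3 KO (6.67%, against 8.02% of all genes called and 2.89% called lower), Rfc4 (-0.31, adjusted p = 0.0184) and Uhrf1 (-0.18, adjusted p = 0.0465). The median was -0.12 beside 0.0014 for all genes. Neither call survived leaving out any 1 of the Jmjd3 KO or Utx KO libraries (0.0535 to 0.143 for Rfc4 and 0.0685 to 0.230 for Uhrf1), and Uhrf1 was also lost without Tdt Control replicate 1 (0.0582) or 2 (0.0644). Length offsets ended both calls (0.0554 and 0.0746), and upper-quartile factors (0.0529) and the fit of the 4 libraries compared (0.0590) ended that of Uhrf1.

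Genes on a FOXO list, the group to which Cdkn1b and Ccng2 belong by textbook knowledge, had a positive log2 fold change in 18 of 24 cases in Jmjd3 KO and in 20 of 24 in Utx KO against the shared control, where 8385 and 8437 of all 17084 genes were positive. The 24 include the genes of the factors themselves, Foxo1, Foxo3 and Foxo4 (0.09, 0.08 and 0.18 in Jmjd3 KO, and 0.20, 0.14 and -0.07 in Utx KO). Of the 24 listed genes, edgeR called 0 in Jmjd3 KO, with 10 at an unadjusted p under 0.05 (8 higher and 2 lower), 2 called by DESeq2 and a median of 0.09 beside -0.0047 for all genes. At that unadjusted p, 1885 of all 17084 genes were higher and 1525 lower, and DESeq2 called 1041 genes in all. On the FOXO list, Bcl2l11, a proapoptotic BCL2 relative (0.32 ± 0.07, adjusted p = 0.0542), and Trim63, a muscle ubiquitin ligase (-0.26, adjusted p = 0.0697), had the smallest p values. In Utx KO 1 of 24 rose (4.17%, against 0.790% of all genes higher), Gabarapl1, an autophagy gene (0.40 ± 0.05, adjusted p = 0.0169). The median was 0.14 beside -0.0022 for all genes. Bcl6 followed (0.23, adjusted p = 0.0945). The Gabarapl1 call was lost without either Tdt Control library (0.0904 and 0.0604) or either Utx KO library (0.125 and 0.0650). Between the knockouts 2 of 24, the factor gene Foxo4 among them, were higher in Jmjd3 KO and 4 lower (25%, against 8.02% of all genes, 5.13% higher and 2.89% lower), led by Gabarapl1 (-0.27, adjusted p = 0.0177) and Trim63 (-0.32, adjusted p = 0.0246). Without Jmjd3 KO replicate 1 or 2 or Utx KO replicate 1, none of those 6 was called, with 7, 9 and 9 genes at an unadjusted p under 0.05. Without Utx KO replicate 2, 3 were called, and with length offsets 2.

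Of 27 MYC-regulated growth genes, a list that includes Cdk4 and Ccnd2, 2 fell in Jmjd3 KO (7.41%, against 1.03% of all genes lower), Ccnd2 itself and the translation factor gene Eif4a1 (-0.20 ± 0.03, adjusted p = 0.0196). Their median was -0.13, and 26 of the 27 had a negative sign. Of the 27, 15 were lower and 1 higher at an unadjusted p under 0.05, and DESeq2 called 9. Of all 17084 genes tested, 8698 were negative, and 1525 were lower and 1885 higher at that p. DESeq2 called 1041 genes in all. Eif4a1 was not called without any 1 of the Jmjd3 KO or Tdt Control libraries (0.0732 to 0.132) or with a minimum of 5 CPM (0.0555). In Utx KO edgeR called 0 of 27, with 7 at an unadjusted p under 0.05 and 3 by DESeq2, and the median was -0.04. Over all genes tested in Utx KO, 2768 had such an unadjusted p, and DESeq2 called 656. Of the 27, Hspd1, a mitochondrial chaperone (0.15, adjusted p = 0.0802), and Nop16, a nucleolar protein (-0.19, adjusted p = 0.140), came first. Between the knockouts Ccnd2 and Hspd1 (-0.28, adjusted p = 0.00439) were lower in Jmjd3 KO (7.41%, against 2.89% of all genes lower), both under all 14 alternatives.

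**Figure D5:**
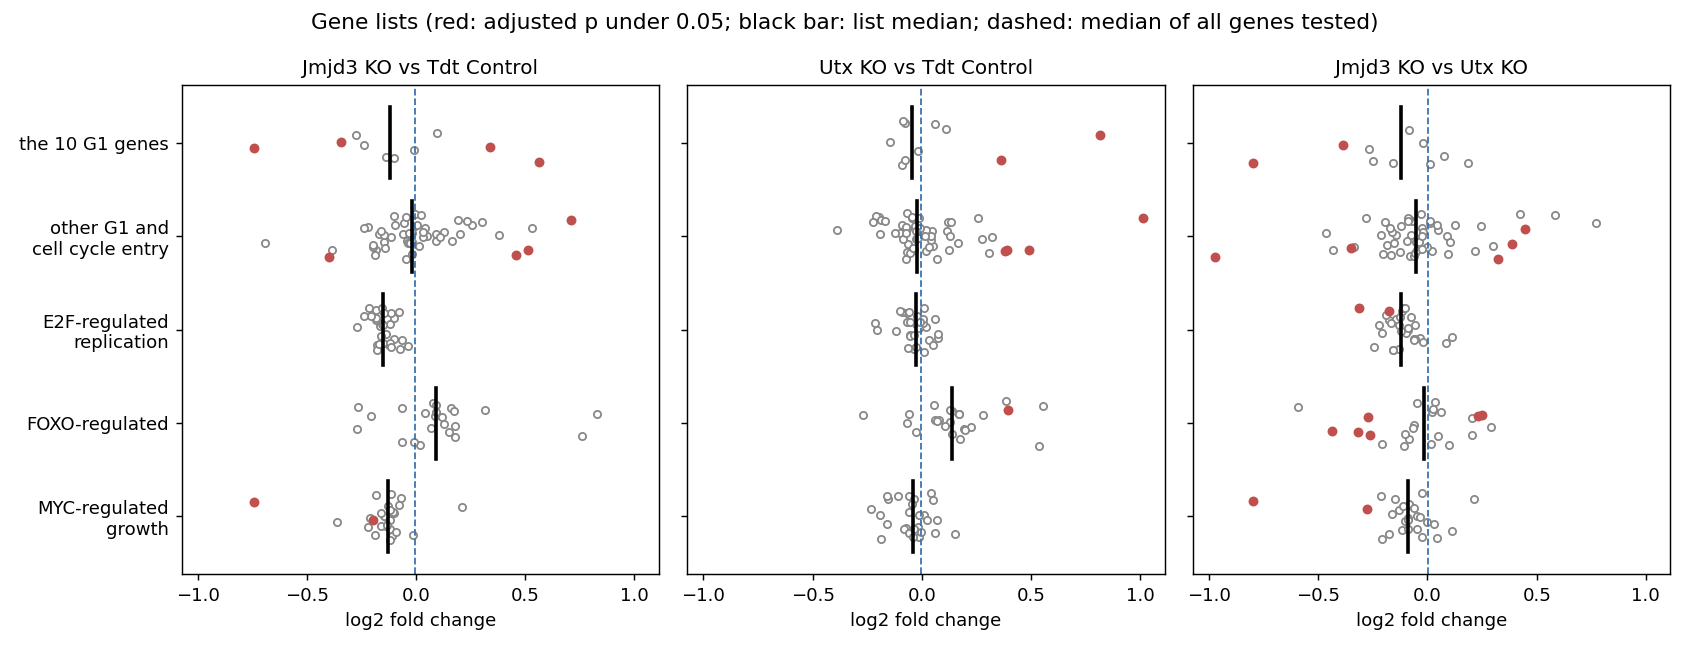
Log2 fold change (x axis) of the genes of each list (y axis), 1 point per gene, in the 3 comparisons, with red points called at an adjusted p under 0.05, a black bar at the list median and a dashed line at the median of all genes tested. The E2F-regulated replication genes lie left of zero in Jmjd3 KO against Tdt Control (median -0.15) with none red.

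The members were also compared with each other and with other genes over the 6 libraries. The measure was the root mean square difference of log2 CPM after centring each gene, where 0 would be the same profile. Levels were not scaled, so the measure reflects the size of changes as well as their pattern, and genes that vary little lie close. Among the members, Ccnd1 and Cdk4 were closest (0.0611), and Ccnd2 and Ccng2 were farthest apart (0.537). Cdkn1b and Ccng2, which rose in both knockouts, differed by 0.1989. Cdkn1b was nearer to Ccnd3 (0.187) and Cdk4 (0.1986), neither of them called in any comparison. Among 10174 genes with a mean of at least 5 CPM, those closest to Cdkn1b were Bcl2l11 (0.0410), which is also on the FOXO list, Tppp3 (0.0452) and Sema6a (0.0459). Closest to Ccnd1 were Mettl14 (0.0194), Mtrr (0.0203) and Xpo5 (0.0245). Closest to Ccng2 were Kcns3 (0.0726), Ptgr1 (0.113) and Cyp39a1 (0.120). With 6 libraries, many genes can share such a profile.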

How the data were processed

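Sorted satellite cells gave 6 libraries of total RNA, 2 per genotype. Tools named in the submitters' processing notes are cutadapt (2.6), Salmon (1.1.0) and DESeq2 (1.28.1), and builds are mm10 and GRCm38, with no roles stated. Per the file headers, the deposited quantification files give estimated counts and TPM for each transcript. Per the file headers, the authors' deposited comparison tables give a signal (the mean normalised level of a gene), log2 fold changes and p-values, raw and adjusted. The sources used here do not name the annotation release.

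Transcript estimates were added up to genes with GENCODE M21 (GRCm38), and read sums were rounded. M21 lacked 884 of the 140748 transcripts, which held 0.1512% to 0.1753% of reads. edgeR 4.0.16 (in R 4.3.3) was fitted to all libraries together, with TMM scaling, its low-count filter and genotype as the only term. The common biological coefficient of variation was 0.0844, with 3 residual degrees of freedom. Quasi-likelihood p-values were adjusted over the 17084 genes tested by Benjamini-Hochberg, with a threshold of 0.05. The script was tested on simulated data with 200 changed genes per comparison. It recovered 73.1% of 1.5-fold changes in Jmjd3 KO against Tdt Control, 76.1% in Utx KO against Tdt Control and 79.1% between the knockouts. False calls made up 5.85%, 13.3% and 5.85% of its calls in that order, against a threshold of 0.05. Profiles were compared on log2 CPM (prior count 2).

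As alternatives, the normalisation was changed to RLE or upper-quartile factors, the filter to none (at least 1 read) or to 5 CPM in 2 libraries, and the test to DESeq2 1.42.0. Length offsets, a fit of the 4 libraries of a comparison, a replicate block and the omission of each library were also tried. Omitting a library leaves a group with 1, assumed to vary like the others. Levels over protein-coding transcripts alone were added after seeing the data.

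All 10 members were named, with Kdm6a and Kdm6b as label checks. Of the other G1 genes up to 4, and of the E2F, FOXO and MYC lists up to 2, with the smallest p were named in each comparison, and the 3 nearest profiles to Cdkn1b, Ccnd1 and Ccng2. Foxo1, Foxo3 and Foxo4 are mentioned only as factors on the FOXO list and are not counted among the named genes. The members and lists were chosen with earlier results of these data known.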

Additional observations from a re-analysis of the deposited data

Results flagged for a closer look

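The direct contrast of the knockouts tests whether the effect of Jmjd3 KO differs from that of Utx KO, since both were measured against the same Tdt Control libraries. By edgeR, 2 of the 10 G1 genes differed: the Jmjd3 KO effect minus the Utx KO effect was -0.80 (log2) for Ccnd2 and -0.39 for Myc. Ccnd2 was lower in both Jmjd3 KO libraries than in both Utx KO libraries, and so was Myc. The rises of Cdkn1b and Ccng2 were not shown to differ between the knockouts.

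Among the other named genes, the same contrast was past the threshold with higher values in Jmjd3 KO for Tob1 (0.44), Mxd1 (0.39) and Cdkn1a (0.32). It was past the threshold with lower values in Jmjd3 KO for Cdkn1c (-0.97), Trim63 (-0.32), Rfc4 (-0.31), Hspd1 (-0.28), Gabarapl1 (-0.27) and Uhrf1 (-0.18). Some markers of other cells were also higher in Jmjd3 KO than in Utx KO, where 5.13% of all genes tested were called higher. Called higher were 6 of 12 macrophage and monocyte markers (225 to 233 against 140.1 to 166 CPM summed), 4 of 12 mature fibre markers (7777 to 8083 against 5445 to 6505), 3 of 10 fibro-adipogenic markers (1396 to 1419 against 1243 to 1380), 2 of 11 neutrophil markers, Mxd1 among them (258 to 335 against 222 to 258), and 0 of 10 endothelial markers. The part of these cells in the differences was not tested.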

How the results depend on the processing

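Each of the 10 genes was recomputed under 14 alternatives in 3 comparisons, 420 values in all. Of these, 362 kept their direction and side of the threshold, 28 lost a call, 17 gained one and 13 changed sign. Changes of sign touched differences that were never called. Leaving out a library moved the log2 value of Rb1 between -0.11 and 0.0909 in Jmjd3 KO, between -0.28 and 0.0857 in Utx KO, and between -0.10 and 0.27 for the difference of the knockouts. It moved Cdk4 in Utx KO between -0.0446 and 0.0176, Myc in Utx KO between -0.0212 and 0.24, and Rbl1 between -0.00348 and 0.0265 for the difference of the knockouts. Rb1 in Jmjd3 KO was 0.000502 with the 5 CPM filter, and Cdkn1b was 0.00811 with length offsets between the knockouts.

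Of the 10 genes, leaving out a library gave 1 to 5 calls in Jmjd3 KO, 0 to 1 in Utx KO and 1 to 2 between the knockouts. In Jmjd3 KO there was 1 call (Ccnd2) without Jmjd3 KO replicate 1 or Tdt Control replicate 2, 2 without Jmjd3 KO replicate 2 or Tdt Control replicate 1, and 5 without either Utx KO library. In Utx KO edgeR gave 0 calls without either Tdt Control or either Utx KO library (3, 2, 2 and 4 genes at an unadjusted p under 0.05), where DESeq2 on all libraries gave 2. Without Jmjd3 KO replicate 1 or 2, or Utx KO replicate 1, 1 gene was called between the knockouts. DESeq2 and no low-count filter each gave 6 calls in Jmjd3 KO, and between the knockouts DESeq2 gave 4 and no filter 5. The 4 libraries compared gave 5 calls in Jmjd3 KO and 1 in Utx KO. The cause of these changes was not tested, beyond the fewer libraries in some fits.

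Over all genes, the calls in Jmjd3 KO against Tdt Control were 513 and became 1872 with no filter, 1041 with DESeq2, 331 with length offsets and 113 to 434 without 1 library. In Utx KO they were 293 and became 1399 with no filter, 656 with DESeq2, 131 with length offsets, 119 with the 4 libraries compared and 16 to 96 without 1 library. Between the knockouts they were 1370 and became 2856 with no filter, 793 with length offsets and 291 to 1387 without 1 library. The mean Ccnd1 to Cdk4 ratio was 0.762 in TPM, 2.95 in CPM, which does not divide by length, and 1.68 over protein-coding transcripts.

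The replicate numbers gave no sign of pairing the libraries: deviations of same-numbered libraries from their group means correlated at -0.0107, -0.00813 and -0.0532 over 17084 genes. With so few libraries in a group, these values cannot exclude a pairing. With a replicate block, 322, 133 and 948 genes were called in the 3 comparisons, and Cdk6 in Jmjd3 KO had an adjusted p of 0.0656. Of the 10 genes, no other call changed with the block. Of the other named genes, the block ended the calls of Eif4a1 in Jmjd3 KO (0.0660), of Cdkn1c, Cdkn2d, Mxd4 and Tfdp2 in Utx KO (0.0620, 0.0599, 0.0973 and 0.0624), which left 0 of the 53 other G1 genes called there (10 at an unadjusted p under 0.05), and of Uhrf1 between the knockouts (0.121).

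With 2 libraries a group, a difference that did not pass is not shown to be absent. Ccng2, Rb1 and Ccnd2 had the fewest reads of the 10 genes, and the SE of Rb1 (0.13) was the largest.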
